A study of Homo sapiens with 6 samples.

Results

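SLC45A3 and ELK4 are neighbouring genes on chromosome 1 whose RNAs can be joined in prostate cancer cells. Their contacts, and those of the next gene, NUCKS1, were examined in Hi-C maps of LNCaP cells treated with control siRNA or CTCF siRNA. The genes were taken by name and the region by position. The region was chr1:204600001-206600000 (hg19) and spanned 50 bins of 40 kb, of which 45 carried a contact within their chromosome, as did 64693 bins of the genome in all. Of the 50 bins, 39 had enough contacts to be used, 29 of the usable bins had an insulation value in both maps and 4 overlapped the 3 genes.

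LNCaP is an androgen-responsive line grown from a lymph node metastasis of prostate cancer. Cells received 20 nM of a pool of non-targeting siRNAs (control) or 20 nM of a pool of 4 CTCF siRNAs, and chromatin was collected 144 h after the first transfection. Hi-C ligates DNA ends that lie close together in the fixed nucleus, here after digestion with BglII, and counts the read pairs that join each pair of bins. There were 2 control libraries and 4 CTCF siRNA libraries, of which 2 carry the numbers 1.1 and 2.1 in the labels and may be further libraries of the same cells. The libraries of a siRNA were pooled into 1 map by the authors, so the maps hold no replicates, no p-value could be given between siRNAs, and every error below covers counting error only. How much CTCF was left cannot be read from Hi-C and was not analysed here.

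SLC45A3 encodes prostein, a membrane transporter family protein that is largely restricted to prostate epithelium and responds to androgen. ELK4 encodes an ETS family transcription factor that acts with serum response factor, and NUCKS1 encodes a chromatin-associated nuclear phosphoprotein. Transcription that runs through the end of SLC45A3 into ELK4 gives a chimeric RNA by splicing, without a change in the DNA, and CTCF bound between the genes has been described as a brake on it. CTCF also marks many borders of topologically associated domains (TADs), the stretches within which contacts are more frequent than across their ends. The chimeric RNA itself is not measured by Hi-C.

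The CTCF siRNAs of the pool are shown because they define the treatment, in lower case with the letters the authors give. Their orientation is not stated and is read here as 5′ to 3′. CTCF siRNA b is given with 18 letters and the others with 19.
CTCF siRNA a: gaugaagacugaaguaaug
CTCF siRNA b: ggagaaagaagaagagua
CTCF siRNA c: gaagaugccugccacuuac
CTCF siRNA d: gaacagcccauaaacauag

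All 3 genes lie on the minus strand, so transcription runs from SLC45A3 toward ELK4. ELK4 occupies chr1:205566684-205601139 and SLC45A3 occupies chr1:205626979-205649637, with 25839 bp between them (GENCODE 44 lifted to GRCh37). NUCKS1 occupies chr1:205681950-205719310, and 32312 bp separate it from the start of SLC45A3. ELK4 and SLC45A3 fell in 2 bins each and shared the middle bin, chr1:205600001-205640000, which held the space between them, the ELK4 start site and 13022 bp of the SLC45A3 body. The SLC45A3 start site lay in chr1:205640001-205680000, the 3′ part of ELK4 in chr1:205560001-205600000 with part of MFSD4A, and NUCKS1 in chr1:205680001-205720000. A contact between the gene ends themselves could therefore not be separated from other contacts of these bins.

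The reference sequence of the 4 bins was searched on both strands for CCA, any 2 letters, AG, any 2 letters and GGC, which recur in the core of sites bound by CTCF. The search gave 0 matches in the middle bin between SLC45A3 and ELK4, 2 in the SLC45A3 start site bin, 1 in the NUCKS1 bin and 1 in the ELK4 3′ bin. A match alone is common, since 61.8% of the 5596 fully sequenced 40 kb bins of chromosome 1 hold at least 1. The matches in the SLC45A3 start site bin and the NUCKS1 bin are shown 5′ to 3′ on the strand of the match (GRCh37), with the 12-letter match in capitals.
SLC45A3 intron, plus strand, chr1:205640067-205640108: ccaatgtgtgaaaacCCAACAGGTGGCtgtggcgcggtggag
SLC45A3 intron, plus strand, chr1:205641803-205641844: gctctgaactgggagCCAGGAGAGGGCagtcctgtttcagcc
Intergenic, minus strand, chr1:205680415-205680456: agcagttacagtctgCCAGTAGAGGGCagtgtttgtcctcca
The intergenic match lies 1508 bp from the end of NUCKS1 and 430 bp past the border of the bins of SLC45A3 and NUCKS1. The 2 SLC45A3 matches lie at -39918 and -38182 bp from that border, at the far end of their bin. Occupancy by CTCF was not analysed here. A match is not a bound site, and a bin without a match may still hold one.

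Depth differed between the maps and between bins. From chr1:48120001 onward the control map held 1240734 contacts within chromosome 1 and the CTCF siRNA map 4861379, which is 3.92 times as many, whereas the region held 9438 and 62503, which is 6.62 times as many. Bins in the group of lowest GC content had 0.943 of the median contact count in the control map and 0.543 in the CTCF siRNA map, and bins in the group of highest GC content had 1.14 and 2.25. At 48.7% GC, the SLC45A3 start site bin held 520 and 4236 contacts, 8.15 times as many after CTCF siRNA. The middle bin, at 49.1% GC, held 420 and 3049, and the ELK4 3′ bin, at 42.4% GC, held 403 and 2550. The NUCKS1 bin, at 39.7% GC, held 250 and 912, only 3.65 times as many. The part that coverage played in the results was not tested, and ratios of contacts between the maps are therefore given as counted and after iterative balancing, which scales the bins of a map to equal totals.

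In the control TAD list, SLC45A3 and NUCKS1 lay on opposite sides of a boundary, and in the CTCF siRNA list they lay in the same TAD. The control list placed ELK4 and SLC45A3 in a TAD of 400 kb, listed at 205260000 to 205660000, together with NUAK2, KLHDC8A, LEMD1, BLACAT1, CDK18 and MFSD4A. It placed NUCKS1 in the next TAD, of 240 kb and ending at 205900000, with RAB29, SLC41A1, PM20D1 and SLC26A9. The CTCF siRNA list had a single TAD of 800 kb from 205100000 to 205900000 that held all 3 genes and also TMCC2 and DSTYK. No listed boundary fell between SLC45A3 and ELK4 in either list.

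The listed edges stood at the middle of bins, and the contacts placed the border a step further on. Across the TAD starts of the control list on chromosome 1, observed over expected contacts had a median log2 of -0.87 at the bin border 20 kb after the listed edge and of -0.63 at the bin border 20 kb before it, and the ends of that list and both edges of the CTCF siRNA list showed the same order. The listed edge at 205660000, inside the SLC45A3 start site bin, thus corresponded to the bin border at 205680000, between the SLC45A3 start and the NUCKS1 end.

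Contacts across that border were the fewest of the 5 bin borders from the 3′ side of ELK4 to the 5′ side of NUCKS1. Counting bins within 200 kb on each side, the control map held 142 contacts across the SLC45A3 and NUCKS1 border where 264 were expected from distance, an observed over expected value of 0.54 (95% interval 0.45 to 0.63). The CTCF siRNA map held 1045 where 1060 were expected, a value of 0.99 (0.93 to 1.05). The ratio of the CTCF siRNA value to the control value was 1.83 (1.54 to 2.20) as counted. After balancing the values were 0.80 and 0.96, with a ratio of 1.20 (1.01 to 1.44).

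The other 4 borders also had higher values as counted, but after balancing their ratios had intervals that included 1. At the border inside SLC45A3 the value went from 0.81 to 1.59 as counted and from 1.03 to 1.17 after balancing, where the ratio of 1.14 had an interval of 0.99 to 1.32. At the border inside ELK4 it went from 0.92 to 1.43 as counted, and after balancing from 1.18 to 1.04. Of the 5 borders, the SLC45A3 and NUCKS1 border was the only 1 whose balanced ratio had an interval above 1, with a lower bound close to 1. As counted, all 5 borders had an interval above 1, beside 31.3% of the 4157 bin borders of chromosome 1. After balancing 22.3% of those bin borders had one, so 1 of 5 was near the background. The borders are 40 kb apart and share most of their bin pairs, so they are not independent, and the difference between their ratios was not tested. The SLC45A3 and NUCKS1 border was placed by an edge called from the control map, which favoured a low control value there.

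**Figure D1:**
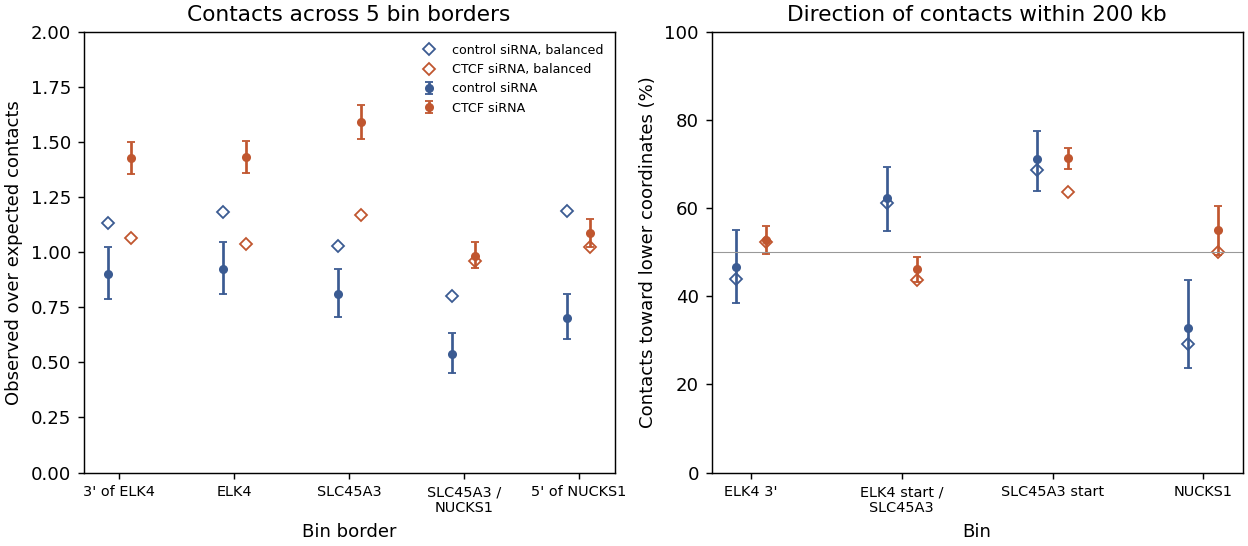
Left, observed over expected contacts between bins within 200 kb on each side of 5 successive bin borders (y axis) in the control and CTCF siRNA maps, as counted (filled, bars are exact Poisson 95% intervals) and after balancing (open diamonds). Right, the share of each gene bin's contacts within 200 kb that went to lower coordinates, toward ELK4 and beyond (percent, Wilson 95% intervals, diamonds balanced); the middle bin moved from 62.4% to 46.2% and the NUCKS1 bin from 32.9% to 55.0%, while the SLC45A3 start site bin was at 71.2% and 71.4% as counted.

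The direction in which each gene bin made its contacts was read from the share that went to lower coordinates within 200 kb. This share needs no expected count and compares partners of a single bin. The SLC45A3 start site bin sent 121 of its contacts to lower coordinates, the ELK4 side, and 49 to higher coordinates in the control map, a share of 71.2% (64.0 to 77.5, Wilson). After CTCF siRNA the numbers were 926 and 371 and the share was 71.4% (68.9 to 73.8). Balanced shares were 68.7% and 63.8%. The bin that holds the SLC45A3 start thus kept most of its nearby contacts on the ELK4 side in both maps.

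The shares of the bins on either side of the SLC45A3 start site bin shifted toward its side. The NUCKS1 bin sent 27 contacts to lower coordinates and 55 to higher ones in the control map, a share of 32.9% (23.7 to 43.7), and 165 and 135 after CTCF siRNA, a share of 55.0% (49.3 to 60.5). The middle bin, with the ELK4 start site, sent 106 and 64 in the control map, a share of 62.4% (54.9 to 69.3), and 539 and 628 after CTCF siRNA, a share of 46.2% (43.3 to 49.1). Of its contacts to higher coordinates, 41 and 396 were with the adjacent SLC45A3 start site bin, on the same side of the border. Of the contacts of the NUCKS1 bin to lower coordinates, 9 and 60 were with the SLC45A3 start site bin. Intervals did not overlap for the middle bin and the NUCKS1 bin, 2 of the 4 gene bins. They were separate in either direction in 18.2% of the 4145 bins of chromosome 1 measured in this way. The 95th percentile of the absolute shift over those bins was 17.5 percentage points. As counted, the NUCKS1 bin shifted by more than this and the middle bin by less. Balanced shares went from 29.1% to 50.2% for NUCKS1 and from 61.3% to 43.7% for the middle bin. The ELK4 3′ bin went from 46.7% (38.6 to 55.0) to 52.8% (49.6 to 56.1), with overlapping intervals.

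The insulation value compares contacts that pass over a bin, between flanks of 400 kb, with contacts inside those flanks, as a log2 ratio in which a lower value means a sharper separation. At the middle bin between SLC45A3 and ELK4 it was -0.80 ± 0.09 (counting SD, here and below) in the control map, below which lay 11.5% of chromosome 1 bins. After CTCF siRNA it was -0.45 ± 0.03, a difference of 0.35 ± 0.09. On chromosome 1, 78.6% of 4216 bins had a smaller or more negative difference. The difference was below the threshold of 0.5 here and after balancing, where it was 0.20, and above it with flanks of 800 kb, where it was 0.58.

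The lowest control value of the region lay at the next bin, with the SLC45A3 start site. There the value was -1.29 ± 0.09 in the control map, below which lay 2.82% of chromosome 1 bins, and -0.77 ± 0.04 after CTCF siRNA, below which lay 6.05%. The difference of 0.52 ± 0.10 lay close to the threshold of 0.5, was 0.51 after balancing, fell short of it with 0.45 when contacts between adjacent bins were left out, and was larger than 88.2% of chromosome 1 differences. The contacts that passed over this bin numbered 215 where 354 were expected in the control map and 1836 where 1458 were expected after CTCF siRNA. Part of the flank at higher coordinates had no usable bins. In the control map, bins with full flanks had 486 contacts expected, and the NUCKS1 bin only 312. The values of the gene bins and their ranks among chromosome 1 bins rest on these shortened flanks.

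The NUCKS1 bin followed with -0.96 ± 0.09 and -0.47 ± 0.04, a difference of 0.49 ± 0.10, and the ELK4 3′ bin with -0.64 ± 0.08 and -0.37 ± 0.03, a difference of 0.27 ± 0.08. Balancing lowered these differences to 0.33 and 0.08, flanks of 200 kb to 0.24 and 0.13, and flanks of 800 kb raised them to 0.62 and 0.57, past the threshold. Over the 4 gene bins the mean difference was 0.41 ± 0.08, and 0.28 after balancing. The SLC45A3 start site bin remained the most insulated of the 4 in both maps.

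**Figure D2:**
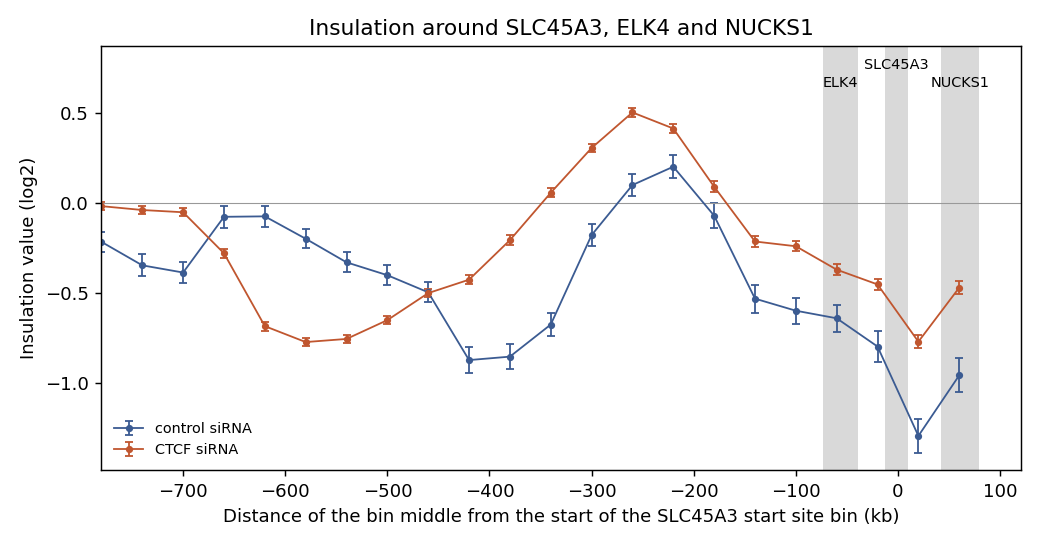
Insulation value (log2, y axis) of each usable 40 kb bin against the distance of its middle from the beginning of the SLC45A3 start site bin (kb, x axis, higher coordinates to the right) in the control and CTCF siRNA maps, with counting SDs as bars and the 3 gene bodies shaded. The lowest control value, -1.29, lies at the SLC45A3 start site bin; at CNTN2, toward the left, values are lower after CTCF siRNA, and at NUAK2, nearer the middle, they are higher.

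Differences between SLC45A3 and ELK4 were set beside those of other places. Bins between neighbouring genes of the same strand, at most 40 kb apart, had a median difference of 0.09 over 3081 positions, and 73.9% of them lay below the difference of 0.35 between SLC45A3 and ELK4. Boundaries of the control list that were absent after CTCF siRNA had a median difference of 0.60 over 1071 positions, with quartiles of 0.36 and 0.85. Boundaries present in both lists had a median of 0.37 over 1046 positions, with quartiles of 0.09 and 0.67. The SLC45A3 start site bin, at a boundary of the first kind, had 0.52, which lay within the quartiles of both kinds. The middle bin, at no listed boundary, had 0.35.

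Within the region, 3 of the 29 bins with a value were higher by at least 0.5 after CTCF siRNA and 2 were lower by at least 0.5. Over all 44691 bins measured, 13.1% were higher and 3.66% lower by that much, or 16.8% in either direction, so with these settings the number of bins past the threshold in the region was close to the background. The 3 bins were the SLC45A3 start site bin, the bin of TMCC2 and NUAK2 with 0.65 ± 0.07 and the bin of KLHDC8A and NUAK2 with 0.73 ± 0.07, which was the highest of the region. The 2 lower bins were that of CNTN2, a neural cell adhesion gene, with -0.61 ± 0.06, and that of CNTN2, TMEM81 and RBBP5 with -0.57 ± 0.06. Whatever the size, 23 of the 29 bins were higher and 6 lower, with a median of 0.20 against 0.02 over all bins. After balancing 19 were higher and 10 lower with a median of 0.12, and with flanks of 200 kb 19 and 11 with a median of 0.07. The counts past the threshold moved with the setting. They were 7 higher and 0 lower of 33 bins with flanks of 800 kb, and 6 and 3 of 30 with flanks of 200 kb. After balancing they were 5 and 1 of 29. Shares over all bins were taken with the main settings only, and the share of all bins that were higher whatever the size was not taken. Neighbouring bins have most of their flanks in common.

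The control list had 7 boundaries in the region and the CTCF siRNA list had 5, of which 4 were shared within 40 kb. The shared boundaries lay at 205900000 and beyond, next to stretches without usable bins, and had no insulation value. The 3 control boundaries without a partner were at SLC45A3, at TMCC2 and NUAK2, and in NFASC. At the boundary at TMCC2 and NUAK2, a stress-responsive kinase gene, the insulation value went from -0.86 to -0.31, a difference of 0.55 ± 0.07, or 0.42 and under the threshold with flanks of 800 kb. At that in NFASC the difference was 0.31 ± 0.07. Over the control boundaries with a value, in 4 bins, the mean difference was 0.48 ± 0.05. Both lists were called from these same maps. The choice of boundaries therefore favoured a rise at those only in the control list and a fall at those only in the other.

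The single boundary found only in the CTCF siRNA list lay at 205060000 to 205100000, among CNTN2, TMEM81, RBBP5 and DSTYK. There the insulation value went from -0.26 to -0.76, a difference of -0.50 ± 0.06, which was -0.79 with flanks of 200 kb and -0.28 with flanks of 800 kb. The left edge of the TAD that held SLC45A3, ELK4 and NUCKS1 thus stood at 205100000, where the control TAD of SLC45A3 and ELK4 began at 205260000.

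Contacts between the SLC45A3 start site bin and the ELK4 bins were more frequent after CTCF siRNA as counted and did not differ after balancing beyond counting error. The SLC45A3 start site bin had 65 contacts with the ELK4 bins in the control map, 1.15 times the expected number (0.89 to 1.46), and 568 after CTCF siRNA, 2.50 times the expected number (2.30 to 2.72). The ratio was 2.18 (1.68 to 2.86) as counted. After balancing the values were 1.34 and 1.40 and the ratio was 1.04, with an interval of 0.81 to 1.37 that treats the scaling factors as exact. With the expected number taken from the region in place of the chromosome, the ratio was 1.42.

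Both ELK4 bins behaved alike in this respect. With the middle bin, the SLC45A3 start site bin had 41 and 396 contacts. The ratio was 2.39 (1.73 to 3.38) as counted, with an interval of 0.81 to 1.58 after balancing. The middle bin holds 1139 bp of ELK4 and 13022 bp of SLC45A3, so these contacts could not be assigned to ELK4. With the ELK4 3′ bin the SLC45A3 start site bin had 24 and 172, with ratios of 1.82 (1.18 to 2.91) and 0.92 (0.60 to 1.47). The 2 bins of ELK4 had 36 and 166 contacts with each other, with ratios of 1.14 (0.79 to 1.68) as counted and 0.64 (0.44 to 0.94) after balancing.

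The NUCKS1 bin had fewer contacts with the SLC45A3 start site bin than expected from distance, in both scalings. They met in 9 contacts of 38.9 expected in the control map, a value of 0.23 (0.11 to 0.44), and in 60 of 157 after CTCF siRNA, a value of 0.38 (0.29 to 0.49). The balanced values were 0.42 and 0.59. The 2 bins are adjacent, and SLC45A3 met its neighbour on the other side, the middle bin, in 41 contacts for the same number expected. With all bins of SLC45A3 and ELK4, NUCKS1 had 22 and 130 contacts, 0.32 and 0.47 times the expected number as counted and 0.67 and 0.89 times after balancing. With the middle bin alone, which holds the ELK4 start site and 13022 bp of SLC45A3, the balanced values were 0.93 and 1.34, and with the ELK4 3′ bin they were above 1 in both maps, with 1.19 after CTCF siRNA. The ratio for all 3 bins was 1.48 (0.94 to 2.44) as counted and 1.32 (0.83 to 2.17) after balancing. Both intervals included 1, so no change beyond counting error was detected. With the expected number taken from the region this ratio was 0.96, on the other side of 1.

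**Figure D3:**
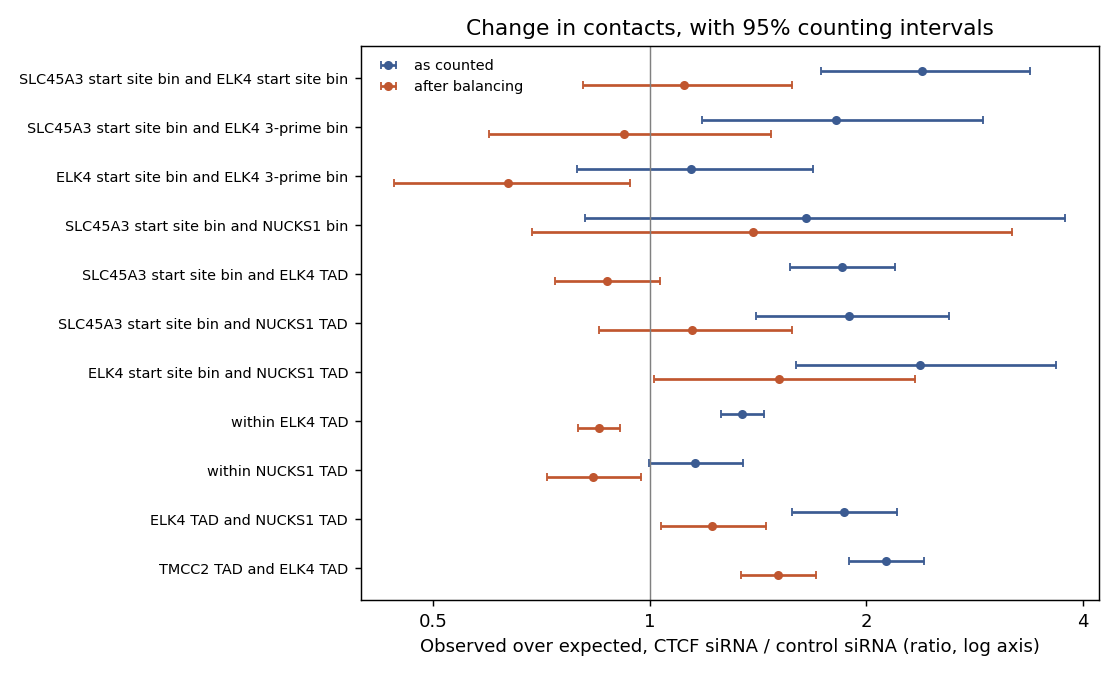
Observed over expected contacts after CTCF siRNA divided by those in the control map (x axis, log scale) for pairs of gene bins, for gene bins with TADs and for whole TADs of the control list (y axis), as counted and after balancing, with 95% counting intervals. As counted all 11 ratios lie above 1; after balancing those between TADs lie above 1 and those within the ELK4 and NUCKS1 TADs lie below 1.

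Summed over the control TADs, contacts between the domains were higher after CTCF siRNA in both scalings. Contacts within them had ratios above 1 as counted and below 1 after balancing. The control TADs were called from this same control map, which favours few contacts between them and many within them in that map. Higher ratios between TADs than within them were thus favoured by the choice, and no other TAD pairs were set beside them. Bins were assigned by the listed edges, so the SLC45A3 start site bin, which held an edge, belonged to neither side and was counted apart. Between the 9 remaining bins of the ELK4 TAD and the 5 bins of the NUCKS1 TAD, the control map had 160 contacts, 0.54 times the expected number (0.46 to 0.63), and the CTCF siRNA map had 1219, 1.01 times that number (0.95 to 1.07). The ratio was 1.86 (1.58 to 2.21) as counted and 1.22 (1.03 to 1.45) after balancing. Within the ELK4 TAD the ratio was 1.35 (1.26 to 1.44) as counted and 0.85 (0.79 to 0.91) after balancing, so the direction turned with the scaling. Within the NUCKS1 TAD it was 1.16 (0.996 to 1.35) as counted, where the interval included 1, and 0.83 (0.72 to 0.97) after balancing.

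The ELK4 TAD also met the TAD on its other side more often. With the TMCC2 TAD, listed at 204900000 to 205220000, it had 302 contacts in the control map and 2677 after CTCF siRNA, with ratios of 2.13 (1.89 to 2.41) as counted and 1.51 (1.34 to 1.70) after balancing. The balanced values were 0.69 and 1.04 times the expected number. The ELK4 start site bin took part in this with 9 and 178 contacts, ratios of 4.59 (2.37 to 10.2) and 2.63 (1.35 to 5.84). The SLC45A3 start site bin was counted apart from these totals. With the TMCC2 TAD it had 0.69 and 2.33 times the expected number as counted, and 0.61 and 0.97 times after balancing. Its ratios were 3.39 (1.97 to 6.30) as counted and 1.59 (0.92 to 2.95) after balancing, where the interval included 1.

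For both start site bins, balanced ratios were above 1 with the NUCKS1 TAD and below 1 with the ELK4 TAD. The ELK4 start site bin had 27 and 255 contacts with the NUCKS1 TAD, ratios of 2.38 (1.59 to 3.68) as counted and 1.51 (1.01 to 2.34) after balancing. With the rest of its own TAD it had 126 and 678, ratios of 1.34 (1.11 to 1.63) and 0.70 (0.57 to 0.85), so the direction turned with the scaling. The SLC45A3 start site bin had 49 and 371 contacts with the NUCKS1 TAD, ratios of 1.89 (1.40 to 2.61) and 1.15 (0.85 to 1.58). With the ELK4 TAD it had 160 and 1191, ratios of 1.85 (1.57 to 2.20) and 0.87 (0.74 to 1.03). The intervals of the 2 start site bins overlapped, and the difference between them was not tested.

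**Figure D4:**
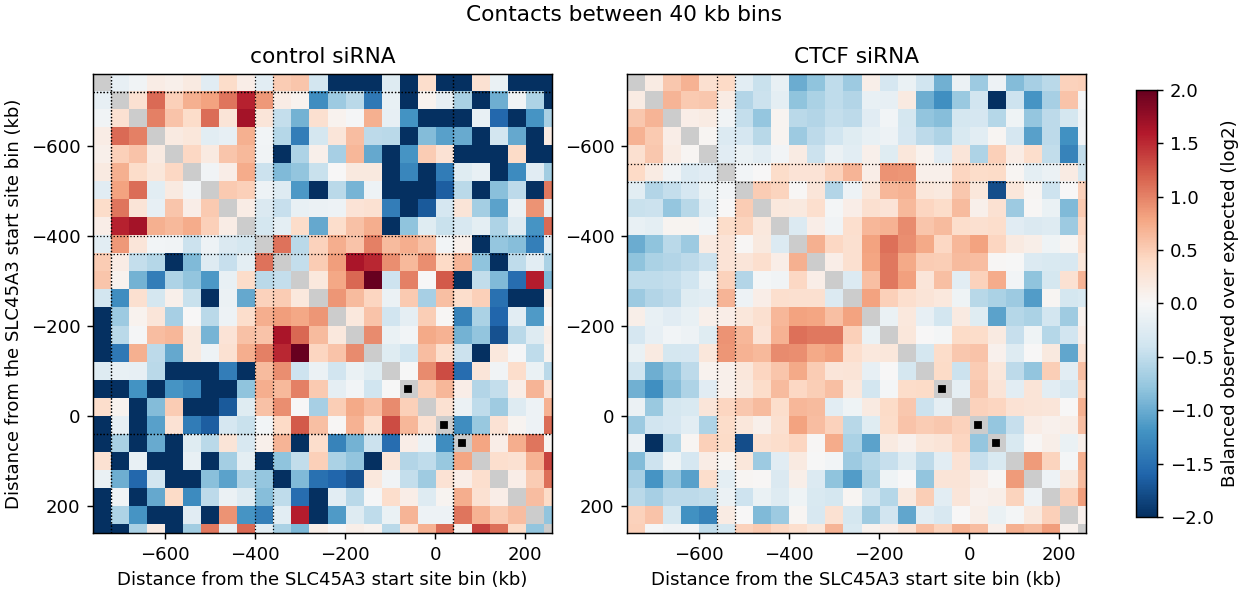
Balanced observed over expected contacts (log2 colour scale, values under -2 drawn as -2, grey for the diagonal) between 40 kb bins of the control map (left) and the CTCF siRNA map (right), by distance from the SLC45A3 start site bin (kb, both axes). Black squares mark, from the upper left, the ELK4 3′ bin, the SLC45A3 start site bin and the NUCKS1 bin, and dotted lines the TAD edges moved 20 kb onward; blue blocks between control TADs, such as the 0.78 between those of ELK4 and NUCKS1, are paler after CTCF siRNA (0.95).

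Single partner bins within 400 kb showed where the excess as counted lay. For the SLC45A3 start site bin, 8 of 16 partner bins had a ratio whose interval lay above 1 and 0 had an interval below 1, against 9.58% above and 14.4% below of all bin pairs of chromosome 1 within 400 kb. For the ELK4 start site bin 6 of 17 lay above 1, and for NUCKS1 0 of 15 lay above and 2 below. Of these, the adjacent bin of RAB29 and SLC41A1, in the same control TAD as NUCKS1 and named after its values were seen, had 19 and 29 contacts, with ratios of 0.38 (0.20 to 0.71) as counted and 0.47 (0.26 to 0.89) after balancing. After balancing the intervals above 1 numbered 0 for each of the 3, beside 3.16% of all bin pairs, and those below 1 numbered 0 for SLC45A3, 2 for ELK4 and 1 for NUCKS1, beside 4.43%.

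Of bins with at least 10 contacts expected in the control map, the SLC45A3 start site bin had its highest ratios, as counted, with the middle bin, 1 bin of CDK18 and 1 of PM20D1. The bin of CDK18, a cyclin-dependent kinase family gene, 160 kb away went from 16 to 143 contacts, a ratio of 2.24 (1.33 to 4.03), which was 1.18 (0.70 to 2.12) after balancing. The other CDK18 bin, 200 kb away with fewer contacts expected, had ratios of 1.58 (1.01 to 2.61) and 0.80 (0.51 to 1.31). The bin of PM20D1 160 kb away on the NUCKS1 side went from 15 to 131, a ratio of 2.19 (1.28 to 4.02), which was 1.02 (0.59 to 1.87) after balancing. The PM20D1 bin shared with SLC41A1 had 1.83 (1.02 to 3.57) and 0.91 (0.50 to 1.76).

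Among bins with at least 10 contacts expected in the control map, the ELK4 start site bin had its highest ratio with the bin of PM20D1 and SLC41A1. That bin lies beyond the SLC45A3 and NUCKS1 border, and the 2 bins had 4 and 59 contacts. That ratio was 3.70 (1.37 to 14.0) as counted and 1.97 (0.73 to 7.46) after balancing, so it rested on very few control contacts. The lowest was with MFSD4A, 80 kb to the other side and inside the ELK4 TAD, with 15 and 39 contacts, ratios of 0.66 (0.36 to 1.29) and, after balancing, 0.39 (0.21 to 0.76).

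Over longer distances all 4 gene bins moved the same way as chromosome 1 as a whole. The share of a bin's contacts within the chromosome that spanned 440 kb to 2 Mb went from 15.8% (12.9 to 19.2) to 24.5% (23.3 to 25.8) for the SLC45A3 start site bin and from 13.3% (10.4 to 16.9) to 21.6% (20.2 to 23.1) for the middle bin. For NUCKS1 it went from 14.0% to 26.9% and for the ELK4 3′ bin from 11.2% to 20.4%. Over all usable bins the share went from 19.9% to 22.3%. Intervals were separate and higher for 4 of the 4 gene bins and for 33.8% of chromosome 1 bins.

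The share beyond 2 Mb went the other way, from 24.6% to 16.6% for the SLC45A3 start site bin, from 23.8% to 15.5% for the middle bin, from 28.3% to 17.6% for the ELK4 3′ bin and from 36.4% to 26.8% for NUCKS1. Over all usable bins it went from 24.1% to 18.4%, and intervals were separate and lower for 4 of the 4 gene bins and for 39.9% of chromosome 1 bins. Neighbouring bins have partners in common, and the shares were not balanced. Between chromosomes, no partner bin had more than 2 contacts with any of the 4 gene bins in either map.

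SLC45A3 and ELK4 were finally set among 23 ETS genes and genes described as fusion partners in prostate cancer. Of these 22 were annotated and 12 had an insulation value at the start site, while 10 lay where the deposited values were not whole counts, among them ERG and TMPRSS2. At 2 of the 12 the value was higher by at least 0.5, SLC45A3 with 0.52 and CANT1, a nucleotidase gene, with 1.13, and at 0 it was lower by as much, beside 13.1% and 3.66% of all bins. The median difference of the list was -0.03, and that of ELK4 was 0.35.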

How the data were processed

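The members and lists were chosen with earlier results of these data known. The authors mapped read pairs to hg19 with Bowtie 1.1.0 through HiCUP, tagged duplicates with Picard 1.121, pooled the libraries of each siRNA into 1 map of 40 kb bins and called TADs from the directionality of contacts. The deposited values are contact counts per pair of bins, each pair present in 2 copies (1 used). On chromosome 1 they were whole (100%) from base 48120001 onward, and nearer the start they had been multiplied by bin factors. Only values from that base onward were used, on this and the other chromosomes. No deposited column of another sample was present.

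Bins under 10% of the median cis count in either map were left out. Expected counts were means per distance, taken on chromosome 1 for its bins and on each other chromosome for the bins there. Insulation values, as log2, needed 50% of bin pairs, with counting SDs from 200 Poisson redraws. Observed over expected values have exact Poisson 95% intervals, ratios between maps exact conditional binomial ones and shares Wilson ones. Balancing ran for 100 iterations. Python 3.11.15, numpy 2.4.6 and scipy 1.17.1 were used, and the statistics were tested on simulated data. The named genes were the 3 members, genes at boundaries and at the most changed bins, and the partner bins with the largest ratios. Alternatives were flanks, balancing, adjacent bins, thinning, the bin filter, the expected counts and the joining of boundaries.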

Additional observations from a re-analysis of the deposited data

How the results depend on the processing

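Of 72 alternative values for 13 results, 48 moved by less than the counting error or the limit set for counts, 23 moved by more and 1 turned its direction. Flanks of 800 kb raised the insulation difference between SLC45A3 and ELK4 to 0.58, past the threshold of 0.5, and the mean of the gene bins to 0.60, and balancing lowered them to 0.20 and 0.28. Flanks of 200 kb gave 0.62 for the mean at control boundaries. With these flanks 9 of 30 bins of the region passed the threshold in place of 5 of 29, without a share over all bins at that setting. The ratio of contacts between the SLC45A3 start site bin and the ELK4 bins was 1.04 after balancing and 1.42 with expected counts from the region. Under the latter the ratio of the NUCKS1 bin with the bins of both genes turned to 0.956. Joining facing TAD edges within 400 kb left 2 shared boundaries in place of 4. Without contacts between adjacent bins, 1 gene of the ETS and fusion list passed the threshold in place of 2. The cause was not tested. Thinning the CTCF siRNA map to the control depth, run for all results but the shared TAD boundaries, kept each within its error or limit. No paired analysis was possible because each siRNA has a single pooled map, and for the same reason no library could be left out. The control map limits precision: 9 contacts between SLC45A3 and NUCKS1 allow a ratio of 0.81 to 3.78. Copy number and residual CTCF were not analysed here.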
